A study of Homo sapiens with 6 samples.

Results

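The HOX clusters are 4 runs of homeobox genes in the human genome, and 39 of the 61267 genes in the deposited count table carry a HOXA, HOXB, HOXC or HOXD symbol followed by a number. They were taken by that symbol alone, with no use of their values. On GRCh38, the build named in the submitters' processing notes, the 11 HOXA genes lie on chromosome 7, the 10 HOXB genes at chr17:48528526-48728750, the 9 HOXC genes at chr12:53938831-54056030 and the 9 HOXD genes at chr2:176092721-176190907. RNA was sequenced in 6 libraries, whose labels name the cells as THP-1, a human monocytic leukemia cell line. All 6 came from cells made adherent with PMA, a phorbol ester that turns these cells macrophage-like, at 100 ng/ml for 48 hours. By their genotype labels 3 libraries were NC and 3 were KD. The series title names METTL1, a methyltransferase that places m7G on RNA, but the sample labels do not name the gene that KD refers to. The labels do not say whether replicate libraries were grown separately, and the p-values below therefore reflect only the variation among the 3 libraries per group, which may be technical.

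HOX genes encode DNA-binding homeodomain proteins that give cells their position along the head-to-tail axis of the embryo. The number in a symbol is the paralog group, and the groups lie in order along each cluster, with low numbers (anterior) active toward the head and high numbers (posterior) active toward the tail. HOX proteins bind DNA together with the TALE homeodomain proteins of the PBX, MEIS and PKNOX families. Polycomb complexes keep the clusters silent, and KMT2A (MLL), with menin and DOT1L, keeps them active. In blood, HOXA9 and its neighbors are expressed in stem and progenitor cells and fall as myeloid cells mature. THP-1 is known to carry a KMT2A-MLLT3 fusion, of a kind that keeps HOXA9 and MEIS1 on in leukemia.

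Promoter sequences were read from RefSeq (GRCh38.p14), which gave 27 windows of 250 bases ending just before a transcript start, for 20 of the 39 genes. The windows of HOXC4 and HOXC5 are the same, and HOXA3 has more windows than any other gene. Counts and medians over the 27 are therefore not over separate promoters. Shown here are HOXA9 and HOXA10, whose counts were the least lowered in the libraries labelled KD, and HOXA6 and HOXD13, which had no count there. HOXA10 has a second window, at chr7:27179862-27180111, which lies in exons of the deposited table and is not shown. The windows shown for HOXA9, HOXA10 and HOXA6 also lie between the first and last bases of these genes in that table. Only the HOXD13 window lies before its gene. Each window shown is written on the gene's strand, with CG dinucleotides in capitals.
HOXA9, chr7:27165538-27165787, minus strand: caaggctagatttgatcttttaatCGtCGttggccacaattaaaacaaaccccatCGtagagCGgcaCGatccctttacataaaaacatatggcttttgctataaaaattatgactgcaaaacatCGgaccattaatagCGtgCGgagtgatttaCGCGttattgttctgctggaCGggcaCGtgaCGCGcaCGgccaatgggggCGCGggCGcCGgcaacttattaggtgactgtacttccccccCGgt
HOXA10, chr7:27174321-27174570, minus strand: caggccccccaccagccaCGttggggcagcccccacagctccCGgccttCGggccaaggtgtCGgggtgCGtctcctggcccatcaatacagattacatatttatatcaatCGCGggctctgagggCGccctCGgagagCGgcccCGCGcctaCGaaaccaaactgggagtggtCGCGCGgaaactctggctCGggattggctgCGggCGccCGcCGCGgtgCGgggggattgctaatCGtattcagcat
HOXA6, chr7:27147775-27148024, minus strand: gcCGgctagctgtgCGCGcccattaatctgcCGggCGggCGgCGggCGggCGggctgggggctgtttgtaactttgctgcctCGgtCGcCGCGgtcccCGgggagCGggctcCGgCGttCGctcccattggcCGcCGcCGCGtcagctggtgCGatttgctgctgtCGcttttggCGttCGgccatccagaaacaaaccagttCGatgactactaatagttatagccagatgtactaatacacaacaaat
HOXD13, chr2:176092471-176092720, plus strand: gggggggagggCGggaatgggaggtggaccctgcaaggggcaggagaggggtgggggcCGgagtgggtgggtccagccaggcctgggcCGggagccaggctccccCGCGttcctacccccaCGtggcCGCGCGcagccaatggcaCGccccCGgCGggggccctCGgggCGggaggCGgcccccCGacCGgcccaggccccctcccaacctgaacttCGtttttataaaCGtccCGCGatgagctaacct
The HOXA9 window held 20 CG dinucleotides, the HOXA10 window shown 24 and the other 19, HOXA6 27 and HOXD13 21, against a median of 19 over the 27 HOX windows and 11 over 35116 windows of all genes. The letters TATAAA, searched on both strands, were in the windows of HOXA9, HOXA10 (both) and HOXD13 but not of HOXA6. They were in 5 of the 27 HOX windows and 10.7% of all windows. The PBX-HOX composite TGATTNAT was in 2 HOX windows (HOXA2 and HOXD11) and 2.48% of all windows, the MEIS motif TGACAG in 2 (HOXA2 and HOXA4) and 13.03%, and the CDX motif TTTATGG in 1 (HOXD8) and 2.30%. These matches are letters in a window and were not tested as sites.

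The clusters also hold microRNA genes, small RNAs that repress messages through a seed, bases 2 to 8, shown in capitals. MIR196B lies beside HOXA9, and MIR196A1 and MIR196A2 at the matching places in HOXB and HOXC, and their products share the seed AGGUAGU. The other sequence shown is that of MIR10A, in HOXB, whose seed differs.
hsa-miR-196b-5p: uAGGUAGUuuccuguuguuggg
hsa-miR-196a-5p: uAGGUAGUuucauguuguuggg
hsa-miR-10a-5p: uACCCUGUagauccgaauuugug

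The libraries held 37628972 to 42970216 counts each. METTL1 was at 14.8 ± 1.01 CPM (counts scaled to a common library size; SD, n = 3) in the libraries labelled NC and 13.7 ± 0.604 (SD, n = 3) in those labelled KD, and its log2 fold change of -0.10 (adjusted p = 0.216) did not pass the test, so this gene does not check the KD label, and every direction below rests on the labels as given. The RNA pool differed widely between the groups: of 21905 genes tested, 40.3% were lower and 36.2% higher in the libraries labelled KD, 76.5% in all. Among markers of leukocytes 56 of 57 tested were higher there, and their summed level was 4425 to 4641 CPM in NC and 11322 to 11499 CPM in KD. Among markers of neural, epithelial and embryonic cells 19 of 20 were lower and 0 higher in edgeR, with 2902 to 3339 CPM in NC and 48.0 to 50.4 CPM in KD, and LIN28B, POU3F3 and PAX3 had no count in any library labelled KD. Of these 20, 8 did not reach the minimum of the filter on low counts in all 3 KD libraries. They passed it through the NC libraries, which favors lower values in KD. CDKN2A, a tumor suppressor gene that THP-1 is known to lack, had 1484, 1521 and 1637 counts in NC1, NC2 and NC3 and 0, 7 and 6 in KD1, KD2 and KD3. Whether the libraries labelled NC hold RNA of THP-1 alone was not tested, so the NC levels below are those of the libraries as labelled. Markers of fibroblasts and muscle were split, with 3 higher and 2 lower of 7 tested, as were lymphoid and erythroid markers, with 2 higher and 2 lower of 6. Of those tested, 1 and 2 passed through NC in the same way. The part of the cell types that these markers stand for in the HOX results below was not tested. In such bulk libraries, fewer cells of a type and less RNA per cell cannot be told apart.

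HOX RNA was lower in the libraries labelled KD in all 4 clusters. The 39 genes together held 8093 to 9100 counts in each NC library and 754 to 762 in each KD library. Their summed level, in CPM per kilobase of exon, was 80.4 ± 1.94 in NC and 6.76 ± 0.0762 in KD (SD, n = 3 each). Of the 39 genes, 38 had a count in some library, all but HOXB1, and 34 passed the filter on low counts. All 34 were lower in KD by edgeR's quasi-likelihood test at a Benjamini-Hochberg adjusted p of 0.05, and 0 were higher. In that test 40.3% of all tested genes were lower and 76.5% were called in either direction. The calls of the 34 were the same at an unadjusted p under 0.05. With limma-voom 34 of 34 HOX genes were lower, beside 8847 of all 21905 tested genes. With DESeq2 37 of 38 were lower, beside 8896 of 31581, and 0 were higher with either. The NC and KD values of these 34 genes did not overlap, as was so, with KD lower, for 41.3% of all tested genes. However, 24 of the 34 did not reach the filter's minimum in all 3 KD libraries (20 in none of them and HOXA3, HOXA4, HOXB6 and HOXC9 in 1 or 2) and passed through the NC libraries, which favors lower values in KD, so counts and medians over the 34 describe these genes and support nothing. The other 10 reached it in all 3 KD libraries too, among them HOXA5, HOXA9, HOXA10, HOXA11, HOXA13, HOXB3, HOXB4, HOXB7 and HOXC10. Each of these 10 was lower, with log2 fold changes of KD over NC from -4.64 to -0.86 and a median of -2.02, beside a median of -0.05 over all tested genes.

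The size of the difference varied widely among the members. A total of 13 genes had no count in any KD library (HOXA6, HOXB2, HOXB5, HOXB8, HOXB13, HOXC5, HOXC12, HOXD1, HOXD3, HOXD4, HOXD9, HOXD12 and HOXD13), and for these only a bound can be given, set by a floor of 3 counts over the 3 KD libraries. The bounds take each count as a separate molecule. With such genes at their bound, the median log2 difference of the 34 tested genes was -4.98. It was -3.27 for the 11 tested HOXA genes, -5.55 for 8 HOXB, -5.21 for 8 HOXC and -6.57 for 7 HOXD. Of the 34, 23 were at least 16-fold lower by ratio or bound (3 HOXA, 6 HOXB, 7 HOXC and 7 HOXD), and only HOXA9, HOXA10 and HOXA11 were less than 2-fold lower. Of the 10 genes that reached the filter's minimum in all 3 KD libraries, 7 were at least 2-fold lower, beside 22.9% of all tested genes, and 2, HOXB7 and HOXC10, at least 16-fold lower, beside 4.83%. HOXB5, HOXC12, HOXD1 and HOXD12 had counts that were too low to test, and HOXB1 had none in any library.

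**Figure D1:**
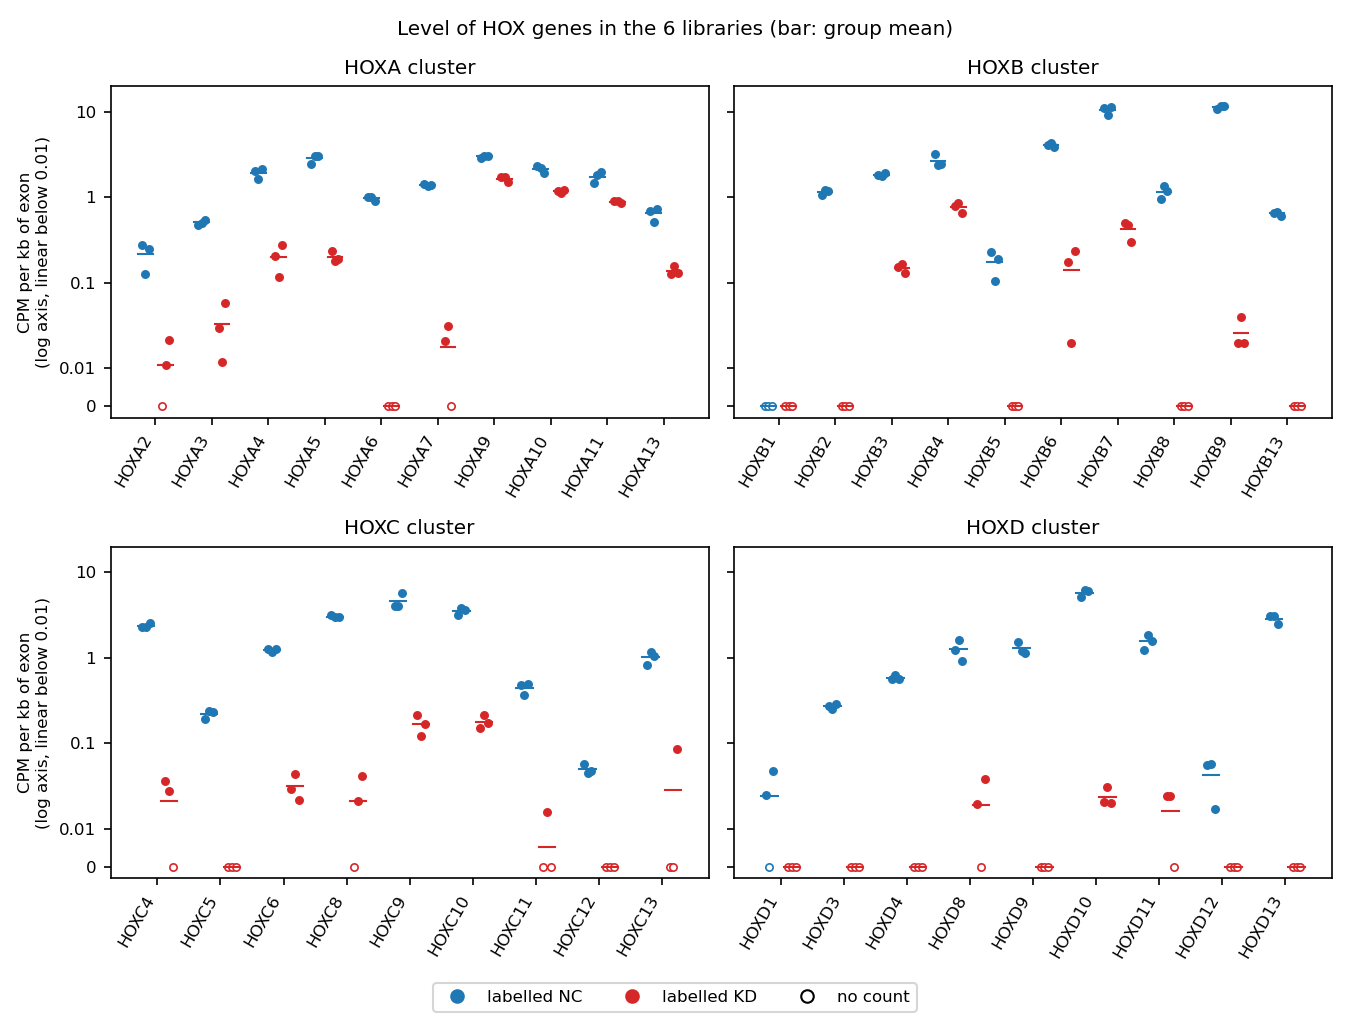
Level of HOX genes in the 6 libraries, in CPM per kilobase of exon, on a log axis that is linear below 0.01. Points are libraries, bars are group means and open circles mark no count. The KD points lie below the NC points for every gene drawn with a count except HOXD1, which had no count in NC2, and they lie nearest for HOXA9, HOXA10 and HOXA11.

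In the HOXA cluster the posterior genes HOXA9, HOXA10 and HOXA11 kept the highest counts in the libraries labelled KD. These 3 are described in every library because of their values, not by the naming rule. HOXA9 (chr7:27162438-27175180), a factor of blood progenitors and of acute leukemia, had 368, 381 and 420 counts in NC1, NC2 and NC3 and 204, 207 and 180 in KD1, KD2 and KD3. Its lowest NC library was above its highest KD library, and it was 1.82-fold lower (95% exact interval 1.65 to 2.01, counting error only), with a log2 fold change of -0.86 ± 0.103 (SE, adjusted p = 4.21e-08). HOXA10 (chr7:27170605-27180261), which acts in myeloid progenitors and the uterus, had 361, 337 and 325 counts in NC and 171, 163 and 178 in KD, a log2 fold change of -0.88 ± 0.111 (SE, adjusted p = 1.15e-07). HOXA11 (chr7:27181157-27185232), a factor of the limb and kidney, had 167, 198 and 236 counts in NC and 94, 96 and 91 in KD, a log2 fold change of -0.97 ± 0.147 (SE, adjusted p = 1.80e-06). The KD libraries lay close together for all 3 genes, and no KD library reached an NC value. HOXA13, the last gene of the cluster and a factor of the digits and hindgut, had 149, 107 and 168 counts in NC and 25, 31 and 26 in KD, 4.76-fold lower (interval 3.75 to 6.10).

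The central HOXA genes, next to HOXA9, differed more. HOXA4 had 146, 117 and 168 counts in NC and 14, 8 and 19 in KD, with a log2 fold change of -3.26 ± 0.250 (SE). HOXA5, a factor of lung and myeloid development, had 178, 215 and 235 counts in NC and 16, 12 and 13 in KD, with a log2 fold change of -3.80 ± 0.213 (SE). HOXA6 had 54, 53 and 53 counts in NC and 0 in each KD library, at least 49.0-fold lower. HOXA7, whose first and last bases lie at chr7:27153716-27157936, had 147, 134 and 153 counts in NC and 2, 3 and 0 in KD, with a log2 fold change of -6.22 ± 0.361 (SE). HOXA7 thus stood near the floor in KD while HOXA9, its neighbor on the chromosome, had 180 to 207 counts in the same libraries. Among the anterior genes, which pattern the hindbrain, HOXA2 had 27, 12 and 26 counts in NC and 0, 1 and 2 in KD. HOXA3 had 87, 88 and 107 counts in NC and 5, 2 and 10 in KD, with a log2 fold change of -3.90 ± 0.336 (SE). The genes from HOXA2 to HOXA7 were thus at 0 to 19 counts in the KD libraries.

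In the HOXB cluster the gene with the highest mean level in NC, HOXB9, was nearly without counts in KD. HOXB9, a factor of the thoracic skeleton, had 1189, 1245 and 1381 counts in NC and 2, 4 and 2 in KD, which is 439-fold lower (interval 222 to 1017). HOXB7 had 714, 570 and 785 counts in NC and 30, 28 and 18 in KD, with a log2 fold change of -4.64 ± 0.152 (SE). HOXB3 had 570, 542 and 646 counts in NC and 45, 48 and 38 in KD, with a log2 fold change of -3.62 ± 0.125 (SE). For all 3 genes the groups lay far apart. HOXB2, a hindbrain gene, had 111, 122 and 131 counts in NC and 0 in every KD library, at least 112-fold lower. HOXB8 had 98, 132 and 130 counts in NC and 0 in every KD library, at least 110-fold lower. HOXB4, known for expanding blood stem cells, was the least lowered of the cluster, at 269, 195 and 222 counts in NC and 62, 68 and 52 in KD, with a log2 fold change of -1.79 ± 0.164 (SE). HOXB6 had 448, 455 and 461 counts in NC and 18, 2 and 24 in KD, so KD2 stood below the other KD libraries. HOXB13, a prostate and hindgut factor, had 84 counts in each NC library and 0 in each KD library, at least 77.3-fold lower. HOXB5, not tested, had 18, 8 and 16 counts in NC and 0 in KD.

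In the HOXC cluster HOXC9 and HOXC10 were the only genes with 8 or more counts in every KD library. HOXC9 had 285, 277 and 431 counts in NC and 14, 8 and 11 in KD, with a log2 fold change of -4.77 ± 0.223 (SE). HOXC10, a factor of the lumbar region and hindlimb, had 315, 368 and 386 counts in NC and 14, 20 and 16 in KD, with a log2 fold change of -4.29 ± 0.177 (SE). The groups of both genes lay well apart. HOXC8 had 322, 294 and 326 counts in NC and 0, 2 and 4 in KD, which is 144-fold lower (interval 66.1 to 394). HOXC4 had 271, 260 and 316 counts in NC and 4, 3 and 0 in KD, which is 111-fold lower (interval 53.8 to 278). HOXC6 had 184, 167 and 200 counts in NC and 4, 6 and 3 in KD, which is 39.0-fold lower (interval 22.6 to 73.7). Of the rest, HOXC13, a factor of hair and nail, had 81, 112 and 113 counts in NC and 0, 0 and 8 in KD, all 8 of its KD counts being in KD3. HOXC11 had 66, 49 and 72 counts in NC and 0, 2 and 0 in KD. HOXC5 had 13, 16 and 17 counts in NC and HOXC12, not tested, had 8, 6 and 7, with 0 in KD for both.

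In the HOXD cluster no gene had more than 4 counts in a KD library. HOXD10, a factor of the hindlimb, had 541, 635 and 671 counts in NC and 2, 3 and 2 in KD, which is 243-fold lower (interval 118 to 604). HOXD13, which shapes the digits, had 311, 308 and 271 counts in NC and 0 in each KD library, at least 273-fold lower. HOXD9 had 121, 92 and 97 counts in NC and 0 in each KD library, at least 95.03-fold lower. The NC libraries were alike for these genes, and KD was at or under the floor or a few counts above it. HOXD11 had 111, 161 and 149 counts in NC and 2, 2 and 0 in KD, and HOXD8 had 138, 174 and 109 counts in NC and 2, 0 and 4 in KD. HOXD3 had 43, 38 and 48 counts in NC and HOXD4 27, 29 and 29, with 0 in KD for both, at least 39.5-fold and 26.1-fold lower. HOXD1 had 2, 0 and 4 counts in NC and HOXD12 had 6, 6 and 2, with 0 in KD for both, and neither was tested.

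**Figure D2:**
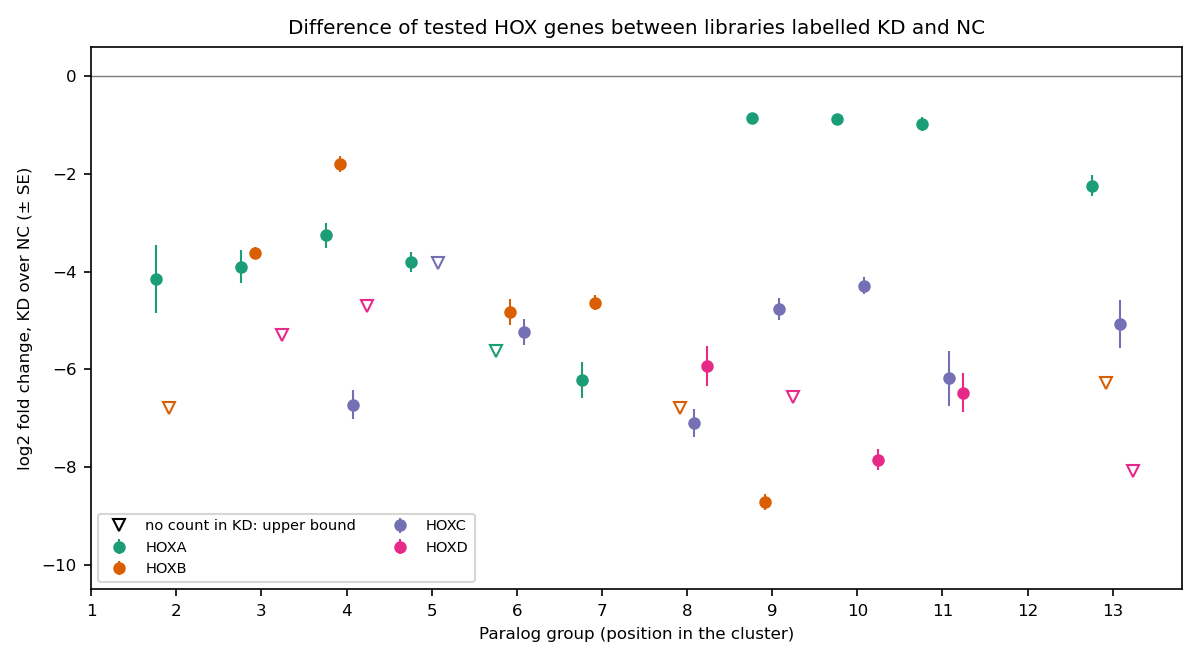
Difference of each HOX gene between the groups, as the log2 of KD over NC with its SE, against the paralog group, for tested genes in 4 colors by cluster. Open triangles are genes with no KD count, drawn at their bound. HOXA9, HOXA10 and HOXA11 lie nearest to 0, between -0.97 and -0.86, and HOXB9 is at -8.71.

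The order of the genes by level also differed. Per kilobase of exon, the highest levels in NC were those of HOXB9 at 11.5 ± 0.508 CPM and HOXB7 at 10.6 ± 1.24 CPM (SD, n = 3), whose ranges overlapped, followed by HOXD10 at 5.78 ± 0.558 CPM and HOXC9 at 4.61 ± 0.964 CPM, which overlapped with each other. In KD the highest was HOXA9 at 1.65 ± 0.129 CPM per kilobase, followed by HOXA10 at 1.17 ± 0.0474, HOXA11 at 0.892 ± 0.0270 and HOXB4 at 0.770 ± 0.105 (SD, n = 3). HOXA11 and HOXB4 overlapped there, and the other neighbors in that order lay apart. In NC, HOXA9 was at 3.00 ± 0.108 CPM per kilobase and overlapped with its neighbors HOXC8 and HOXD13 in the order.

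The clusters therefore held different shares of the summed HOX level, a ratio within a library that no scaling between libraries moves. HOXA held 20.4 ± 0.0441% in NC and 70.0 ± 1.69% in KD. HOXB held 42.04 ± 1.21% in NC and 22.4 ± 2.15% in KD. HOXC held 20.5 ± 1.09% and 6.73 ± 0.492%, and HOXD 17.0 ± 1.499% and 0.875 ± 0.0563% (SD, n = 3 each). HOXA was the one cluster with a larger share in every KD library than in any NC library, on 558 to 577 counts per KD library. HOXD's KD share rests on 5 to 6 counts per library.

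Within the 2 clusters with at least 50 counts in each library, the posterior genes (paralog groups 9 to 13) had shares that differed in opposite directions. In HOXA they held 46.0 ± 0.561% of the cluster's level in NC and 81.4 ± 4.24% in KD, a difference of 35.4 percentage points. In HOXB they held 35.9 ± 2.05% in NC and 1.73 ± 0.704% in KD, a difference of -34.2 points. The groups did not overlap in either cluster, and each exact two-sided permutation test gave p = 0.1 (adjusted p = 0.1 over 2 clusters), the smallest that 3 libraries against 3 can give, so neither could pass 0.05. Within HOXA, HOXA9 stood at 18.3 ± 0.452% of the cluster's level in NC and 34.9 ± 3.44% in KD, and HOXA10 at 13.2 ± 1.5002% in NC and 24.7 ± 0.485% in KD. HOXA11 stood at 10.6 ± 1.23% and 18.9 ± 0.977%. These 3 genes, picked after their values were seen, made up 41.2 to 43.5% of HOXA in the NC libraries and 74.0 to 81.5% in the KD libraries. HOXA5 stood at 17.3 ± 1.78% in NC and 4.27 ± 0.648% in KD. In HOXB, HOXB4 stood at 7.90 ± 1.27% in NC and 50.9 ± 4.05% in KD, and HOXB9 at 34.0 ± 1.98% and 1.73 ± 0.704% (SD, n = 3 each). HOXB7 held a like share in both, 31.2 ± 2.77% and 27.7 ± 4.62%, with overlapping ranges.

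**Figure D3:**
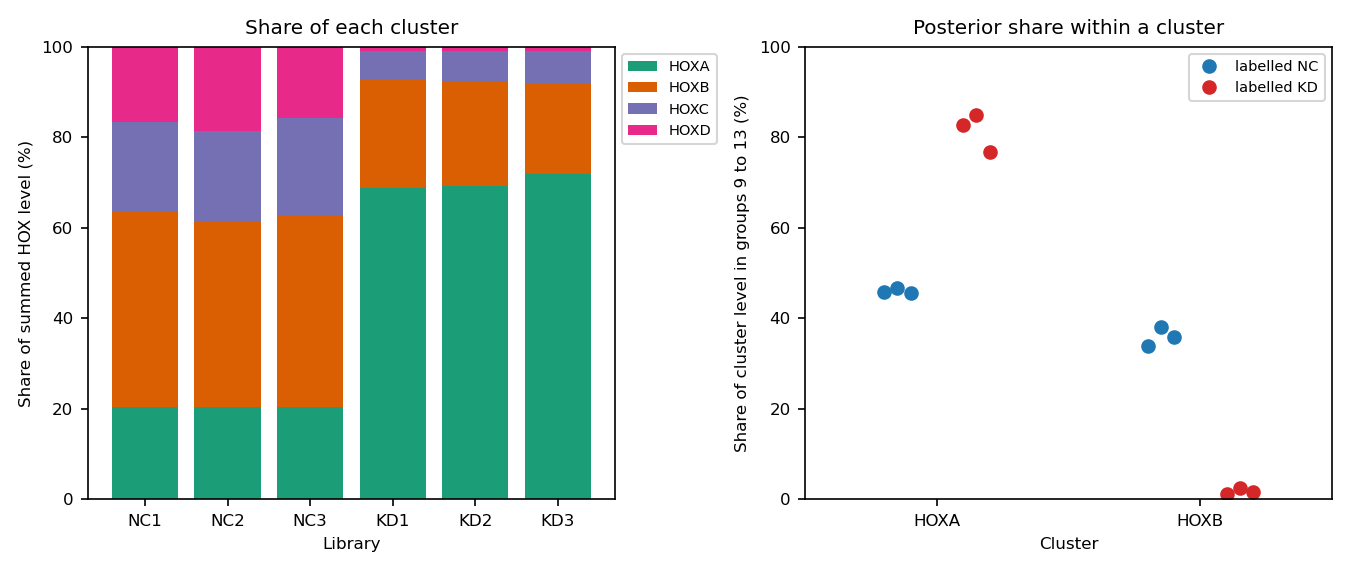
Left, share of the summed HOX level (CPM per kilobase of exon, percent) held by each cluster in each library. Right, share of the HOXA and HOXB levels held by paralog groups 9 to 13, each point a library. HOXA takes 68.9 to 71.9% of the summed level in the KD libraries, and the posterior share is higher in KD for HOXA and lower for HOXB.

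**Figure D4:**
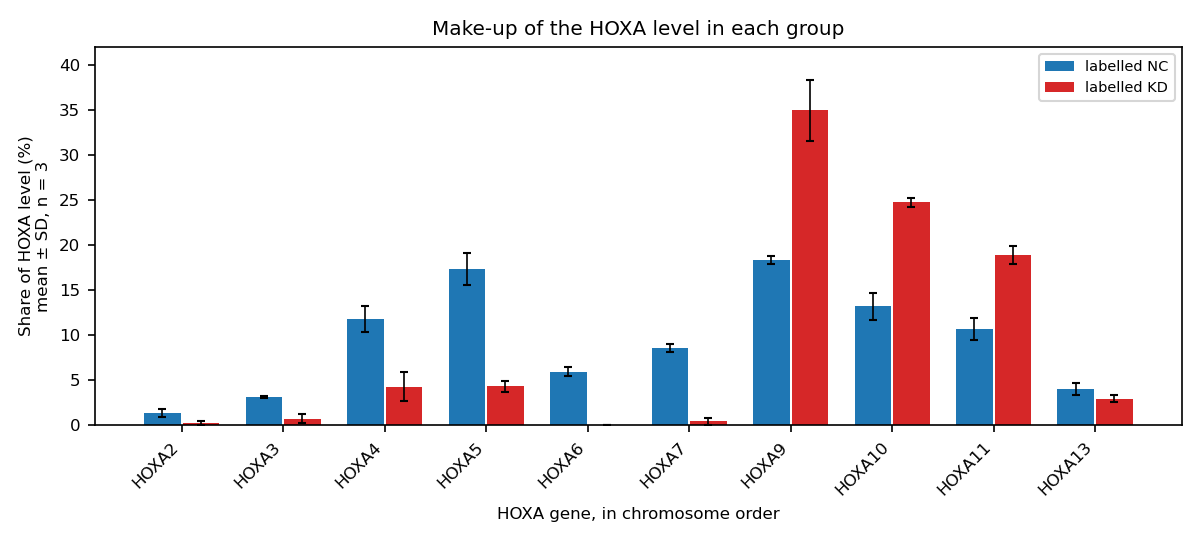
Share of the HOXA level held by HOXA genes, in chromosome order, as the mean and SD of 3 libraries per group. HOXA9, HOXA10 and HOXA11 hold larger shares in KD, and HOXA4, HOXA5, HOXA6 and HOXA7 smaller ones.

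HOX genes overlap each other and antisense transcripts, and the sources used here do not give whether reads were counted by strand, so reads from overlapping exons cannot be assigned with certainty. A total of 25 members share exon bases with another gene, and in 3 of them the shared bases are over 50% of the exon length: HOXA7 at 62.5%, HOXC5 at 67.3% and HOXD1 at 60.1%. HOXA7 shares 1507 bases with HOXA-AS3 on the other strand. HOXA9 shares 422 exon bases with HOXA10-AS on the other strand and 397 with an unnamed gene on its own strand, together with MIR196B 27.0% of its exon bases. That unnamed gene also covers 368 bases of HOXA10. HOXA10 shares 608 bases with HOXA10-AS, and HOXA11 shares 726 with HOXA11-AS. Same-strand sharing also joins HOXC4 and HOXC6 (484 bases), HOXD10 and HOXD11 (452) and HOXB3 and HOXB6 (433). HOXB7, HOXB9, HOXC8, HOXD9 and HOXD13 share none. The part of shared exons in the values above was not tested, apart from the HOXA share without HOXA7, where the posterior share still differed by 31.4 points.

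The long non-coding RNAs of the clusters were mostly lower too, with HOXA10-AS and HOTTIP not passing the test. Of 18 listed, 15 were tested, and 13 were lower and 0 higher in edgeR (14 and 0 at an unadjusted p under 0.05). Among all tested genes 40.3% were lower and 36.2% higher. The median log2 difference of the 15 was -4.53, with genes lacking KD counts at their bound. Of the 15, 11 did not reach the filter's minimum in all 3 KD libraries and passed through the NC libraries. HOTAIR, a transcript of the HOXC cluster reported to guide Polycomb to HOXD, had 417, 366 and 488 counts in NC and 2, 0 and 4 in KD, with a log2 fold change of -7.52 ± 0.271 (SE). HOXA-AS3, which overlaps HOXA6 and HOXA7, had 307, 254 and 312 counts in NC and 5, 5 and 2 in KD. HOXB-AS3 and HOXB-AS1 fell by 4.54 and 4.53 on the log2 scale. HOXA10-AS, which lies across HOXA9 and HOXA10, had 436, 395 and 463 counts in NC and 358, 392 and 372 in KD, with a log2 fold change of -0.08 that did not pass the test. HOTTIP, at the HOXA13 end, had 17, 16 and 17 counts in NC and 7, 8 and 9 in KD, with a log2 fold change of -0.93 (adjusted p = 0.0576). HOTAIRM1, a HOXA transcript known to be induced in myeloid maturation, fell by 1.54 on the log2 scale, and HOXA11-AS by 1.26. The last 4 were named after their values were seen. HOXA10-AS and HOTTIP passed as lower, at -0.27 and -1.11, when libraries were scaled by their total counts alone, and at -1.30 and -2.13 when they were scaled on leukocyte genes. The medians of all tested genes were -0.23 and -1.26 under those scalings.

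Of the 6 microRNA genes, 2 were tested. MIR196B, all of whose bases lie in exons of HOXA9 and HOXA10-AS, had 13, 11 and 27 counts in NC and 16, 16 and 12 in KD. It did not pass the test (log2 fold change -0.08, adjusted p = 0.864). Under the leukocyte scaling it passed as lower at -1.29, where the median of all tested genes was -1.26. MIR10B, beside HOXD4, had 132, 161 and 176 counts in NC and 0 in every KD library, at least 144-fold lower. MIR196A1 and MIR196A2 had at most 4 counts in a library, and MIR10A and MIR615 had none. Such counts come from longer transcripts as well as from precursors, so they do not give the levels of the mature sequences shown above.

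The TALE cofactors, partners of HOX proteins on DNA, were split. Of 9 tested, 5 were higher and 3 lower, beside 36.2% and 40.3% of all tested genes, with a median log2 fold change of 0.28. However, 3 of the 9, MEIS1 and PKNOX2 among them, did not reach the filter's minimum in all 3 KD libraries. They passed through the NC libraries, which favors lower values in KD, so the count of lower genes supports nothing. MEIS1, the partner of HOXA9 in leukemia, had 137, 116 and 141 counts in NC and 6, 2 and 0 in KD, with a log2 fold change of -5.44 ± 0.372 (SE). PKNOX2 had 105, 97 and 94 counts in NC and 0, 2 and 0 in KD. The KD libraries therefore held HOXA9 at 180 to 207 counts and MEIS1 at 0 to 6. PBX3, also a partner of HOXA9 in leukemia, was higher in KD at 3387, 3456 and 3208 counts against 1772, 1667 and 1830 in NC, with a log2 fold change of 1.05 ± 0.0456 (SE), but at -0.16 when libraries were scaled on leukocyte genes. MEIS1 and PKNOX2 were lower under each scaling. MEIS2, named after its values were seen, had a log2 fold change of 0.77 that turned to -0.44 under the leukocyte scaling.

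**Figure D5:**
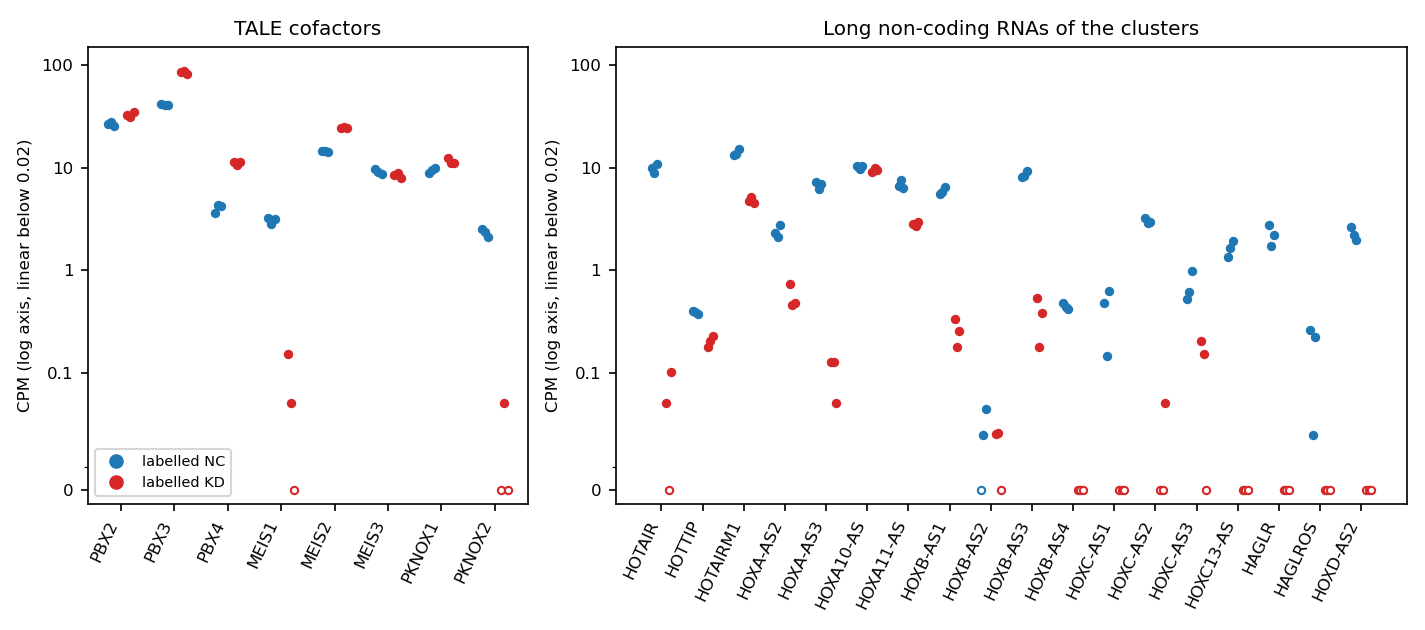
Level of TALE cofactors (left) and of long non-coding RNAs of the HOX clusters (right) in the 6 libraries, in CPM on a log axis that is linear below 0.02. Points are libraries and open circles mark no count. MEIS1 and PKNOX2 are at 0 to 6 counts in KD while PBX3 lies higher in KD than in NC, and the KD points of HOXA10-AS lie beside its NC points.

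The machinery that keeps HOX genes active or silent had log2 fold changes between -2.94 and 1.14. Of 14 genes of the KMT2A, menin and DOT1L machinery, 4 were higher and 9 lower, beside 36.2% and 40.3% of all tested genes. Their median log2 fold change was -0.28. DOT1L, the H3K79 methyltransferase, was at 1.14 ± 0.0411, AFF1, an elongation scaffold, at 1.09 ± 0.0424 and PSIP1, which tethers KMT2A to chromatin, at -2.09 ± 0.0653 (log2 fold change ± SE). AFF4, a scaffold like AFF1, was at 0.80. KMT2A had a log2 fold change of -0.70 and MLLT3 of -1.48, both named here because they form the known fusion and not by rule. Of 20 Polycomb genes, 7 were higher and 12 lower, beside the same shares of all tested genes, with a median of -0.25. CBX2, a reader of H3K27me3, was at -2.94 ± 0.0974, EZH2, which writes that mark, at -1.10 ± 0.0426, PHC2 at 0.86 ± 0.0439 and JARID2 at 0.80 ± 0.0416 (log2 fold change ± SE). Under the leukocyte scaling 0 of these genes were higher, and 13 of 14 and 20 of 20 were lower. Most genes were lower under that scaling, 18308 of all 21905 tested, with 736 higher, so these counts say little about the 2 lists. DOT1L, AFF1, AFF4, PHC2 and JARID2 had negative log2 fold changes there.

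Genes that flank the clusters gave a measure of the same chromosome regions outside the HOX genes. Of 17 listed, 13 were tested, and 4 were higher and 7 lower, beside 36.2% and 40.3% of all tested genes. Their median log2 fold change was -0.36. Of the 13, 1 passed the filter through the NC libraries and not in all 3 KD libraries. HNRNPA1, a splicing factor gene near HOXC, was at -1.10 ± 0.0457, MTX2, next to HOXD, at -1.43 ± 0.0960, and LNPK, on the other side of HOXD, at -0.90 ± 0.0789 (log2 fold change ± SE). SKAP2, next to HOXA, had 1957, 1863 and 2208 counts in NC and 2733, 2905 and 2653 in KD, a log2 fold change of 0.58 ± 0.0479 (SE), or -0.63 under the leukocyte scaling. EVX1 and EVX2, the homeobox genes at the posterior ends of HOXA and HOXD, had at most 4 counts in a library.

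Among the ParaHox and caudal genes, CDX2, a caudal factor that activates posterior HOX genes, had 179, 214 and 231 counts in NC and 0 in each KD library, at least 191-fold lower. PDX1, a ParaHox gene of the pancreas, had 36, 22 and 36 counts in NC and 0 in KD, at least 28.8-fold lower. GSX2 had 4, 6 and 4 counts in NC and 18, 12 and 22 in KD. It was the third tested of the 6 ParaHox and caudal genes and was higher, but did not pass under the leukocyte scaling. Thus 1 was higher and 2 were lower, beside 36.2% and 40.3% of all tested genes. CDX2 and PDX1 passed the filter through the NC libraries and GSX2 through the KD libraries, which favors the directions seen. The median with bounds, -4.85, therefore supports nothing. Retinoic acid, a classic inducer of anterior HOX genes, acts through receptors that bind DNA. Of 12 genes of its receptors and metabolism, 9 were tested, and 6 were higher and 2 lower, beside 36.2% and 40.3% of all tested genes. Their median log2 fold change was 0.64. Of the 9, 1 passed the filter through the NC libraries and not in all 3 KD libraries. RARB, a receptor that retinoic acid itself induces, was at -4.87 ± 0.533, ALDH1A3, which makes retinoic acid, at -2.57 ± 0.194, RXRA at 1.12 ± 0.0599 and CRABP2 at 1.05 ± 0.0526 (log2 fold change ± SE). The last 2 were at -0.09 and -0.16 under the leukocyte scaling.

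Of 10 genes tied to HOXA9 and MEIS1 in leukemia, 6 were higher and 2 lower, beside 36.2% and 40.3% of all tested genes. Their median log2 fold change was 0.59. CDK6, a cell cycle kinase, was at 1.10 ± 0.0429, BCL2, which blocks apoptosis, at 1.07 ± 0.0516, ID2 at 1.00 ± 0.0617 and IGF1R, a growth factor receptor, at -2.97 ± 0.113 (log2 fold change ± SE). Under the leukocyte scaling 1 was higher and 8 were lower, beside 736 and 18308 of all 21905 tested genes. CDK6 was then at -0.11, BCL2 at -0.14 and ID2 at -0.22. Of 6 genes listed as HOX inhibitors and partners, 3 were higher and 2 lower, beside 36.2% and 40.3% of all tested genes. Their median was 0.12. GMNN, the replication inhibitor geminin, which also binds HOX proteins, was at -3.33 ± 0.0524, MEF2C at 1.77 ± 0.0464, and the acetyltransferase genes EP300 and CREBBP at 0.67 ± 0.0401 and 0.36 ± 0.0433. MEF2C stayed positive under the leukocyte scaling at 0.56, and EP300 and CREBBP had -0.55 and -0.85.

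Scaling the libraries on 57 leukocyte genes moved the median log2 fold change of all tested genes from -0.05 to -1.26, and scaling by total counts alone moved it to -0.23. The 34 tested HOX genes were lower under each, as were 18308 and 10369 of all 21905 tested genes. Relative to the median of all genes under the leukocyte scaling, HOXA9 was at -0.82, HOXA10 at -0.83 and HOXA11 at -0.93, beside -8.64 for HOXB9. METTL1, which did not pass in the main fit, passed as lower under both, with log2 fold changes of -1.32 and -0.29. Both values lie near the medians of all tested genes, -1.26 and -0.23, so they do not check the KD label either.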

How the data were processed

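The deposited file is a table of raw counts per gene for the 6 libraries, with exon positions and exon length, per the file headers. The submitters' processing notes name fastp 0.23.0, a read trimmer, and the build GRCh38. The sources used here do not give the aligner, the counting program or the use of strand. Libraries were made for DNBSEQ-T7 sequencing from RNA taken with Vezol reagent, per the labels' protocols. Of the counts from 1 to 20 of HOX genes in KD libraries, 32 of 41 were even (78.0%), so a count may be a read end rather than a molecule. In that case the intervals are too narrow and the fold bounds set by the floor too large, by an amount that was not tested. Intervals, floors and bounds cover counting error only, with each count taken as independent.

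The test of counts was edgeR 4.0.16, run in R 4.3.3 (TMM, filterByExpr, robust quasi-likelihood, two-sided) over all 21905 genes that passed the filter, at least 0.240 CPM in 3 libraries with a total of at least 15, and p-values were adjusted by Benjamini-Hochberg over all of them. CPM use the TMM-scaled library size, and division by exon length in kilobases gives the level used to compare genes. Fold intervals are exact binomial at 95%. Shares were tested by exact permutation in scipy 1.17.1. In simulated data with the mean levels and depths of these libraries, the fit recovered 56% of 50 genes changed 1.25-fold and 88% of 50 at 1.5-fold. It recovered 100% of 50 at 2-fold and at 4-fold, and called 9 of 21304 unchanged genes. Few genes were changed there, equally up and down, none with a low mean count, and all genes had the same dispersion. With 76.5% of genes called here, the simulation cannot show how the fit behaves on so wide a difference or at low counts.

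The groups are the labels NC and KD, 3 libraries each. No pair of libraries within a group agreed within sampling noise. Named by rule were, in each cluster, the 5 tested genes with the smallest p, and of each of 10 gene lists up to 4 with the smallest p. Many of the list genes are given only by their log2 fold change and not in every library. Any other gene named was chosen after its values were seen. The HOX genes and the lists were chosen with earlier results of these data known. Alternatives were other scalings, filters, thresholds, DESeq2 1.42.0, limma-voom (limma 3.58.1), counts divided by 2, a replicate block and leaving out each library. Values of some genes are not reported here. HOXC and HOXD shares were not tested because they had under 50 counts in KD libraries.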

Additional observations from a re-analysis of the deposited data

How the results depend on the processing

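The tested HOX genes were lower in KD, and 0 were higher, under every alternative run: 34 of 34 with DESeq2-type size factors, library sizes alone, leukocyte scaling, no robust estimation, an adjusted p of 0.01, a test against 1.5-fold and limma-voom, 37 of 38 with no filter and with DESeq2, 28 of 28 at a mean of at least 1 CPM, 32 of 32 with counts divided by 2, and 34 to 35 leaving out each library. Of all 21905 tested genes, 8810 were lower with DESeq2-type size factors, 8828 with no robust estimation and 8082 at an adjusted p of 0.01. With no filter 9814 of 39845 were lower, and with DESeq2 8896 of 31581. At 1 CPM 7172 of 17046 were lower, and 8186 of 19607 with counts divided by 2. Leaving out each library, 8667 to 8874 were lower. As 24 of the 34 passed the filter through NC in the main fit, these counts support nothing. All 604 values of single HOX genes over 18 settings kept their direction and their side of the threshold. With counts not divided by length the posterior share of HOXA differed by 28.3 points in place of 35.4; leaving out each library gave 33.7 to 37.8 points for HOXA and -35.2 to -33.1 for HOXB. Replicate numbers are shared by the groups. Correlations of same-numbered deviations were 0.0153, 0.00592 and -0.0138, and not every library correlated best with its own number. No pairing by number was seen, but such small correlations cannot exclude that same-numbered libraries shared a culture. With the replicate block 34 HOX genes were lower, beside 7763 higher and 8665 lower of all genes, against 7934 and 8824 without it.

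Over all genes, leukocyte scaling gave 736 higher and 18308 lower, library sizes alone 6212 and 10369, and the 1.5-fold test 3939 and 5716. Under leukocyte scaling the TALE list had 1 higher and 8 lower in place of 5 and 3. The flanking genes had 0 and 13 there in place of 4 and 7, and the retinoic acid genes 0 and 8 in place of 6 and 2. The HOX inhibitors and partners had 1 and 5 in place of 3 and 2. Library sizes alone gave 3 higher TALE genes. The 1.5-fold test gave 3 higher TALE genes, 3 lower genes of the KMT2A machinery and 3 higher and 5 lower Polycomb genes. It also gave 0 higher flanking genes, 1 lower leukemia gene and 1 lower gene among the HOX inhibitors and partners. A mean of at least 1 CPM left 1 lower and 0 higher ParaHox genes and 1 lower retinoic acid gene, and counts divided by 2 left 0 higher ParaHox genes, since fewer genes were tested. The causes of the other differences were not tested. In KD, HOXC had 36 to 42 counts and HOXD 5 to 6 in a library, which limits what can be said of members there.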
